A study of Mus musculus with 15 samples.

Results

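The transcripts of 39 interferon-stimulated genes were followed in invariant natural killer T (iNKT) cells from 4 lymphoid tissues of the mouse. The genes were taken as a list of known interferon targets, by name and not by a threshold on their values, and all 39 were found among the 48795 genes listed. All 39 also passed the filter on low counts, which left 13600 genes to be tested. iNKT cells are T cells with a nearly fixed T cell receptor that recognise lipids presented by CD1d. They were sorted from thymus, spleen, mesenteric lymph node (mLN) and inguinal lymph node (iLN) of untreated wild type C57BL/6 mice, 6 weeks old, as cells that bound the CD1d tetramer and carried TCRβ but not B220, CD11b, CD11c or CD8. Thymus, spleen and mLN had 4 samples each and iLN had 3 (replicates 2, 3 and 4; replicate 1 was not analysed here). The labels number the replicates and place replicates 3 and 4 in the first batch (batch 1) and replicates 1 and 2 in the second (batch 2), and the study calls its samples biological replicates, but neither says whether 1 sample is 1 mouse or a pool. The p-values therefore measure the spread between these samples. Whether same-numbered samples of different tissues came from the same mice is not stated, and the main fit did not pair them. Lymph nodes were digested with enzymes, while spleen and thymus were pressed through strainers, so tissue and preparation cannot be told apart.

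Between 1152702 (thymus replicate 2) and 8670570 estimated counts were assigned to genes per library, with a median of 5327351. The 8 genes fixed as iNKT cell markers summed to between 2879.8 and 4693 CPM (counts-per-million, scaled with the trimmed mean of M values) in every library. All of them were above 0 in every library except Traj18, which was at 0 in 7 libraries and at most 0.342 CPM in the others. Spleen replicate 1 stood apart by B cell genes (Pax5 36.8 and Ms4a1 31.2 CPM, where the highest value of each in the other 14 libraries was 6.76 and 4.31 CPM). Because whole sorted populations were sequenced, fewer cells of a type and less RNA per cell cannot be told apart.

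Type I interferons (alpha and beta) signal through the receptor chains Ifnar1 and Ifnar2 to the kinases Jak1 and Tyk2. A complex that holds Stat2 and Irf9 then binds the interferon-stimulated response element (ISRE) in the promoters of target genes, while interferon gamma acts through Ifngr1 and Ifngr2 and on promoters with the gamma-activated site (GAS). The products of the target genes sense viral RNA and DNA, degrade RNA, stop translation or limit nucleotides, and a basal level of this programme is kept up in many lymphocytes without infection.

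Promoters were read from RefSeq on GRCm38.p6 as windows from 250 bases before to 50 bases after each start site, and 29 of the 39 members matched. The ISRE core was searched as GAAA, any 2 bases and GAAA (TTTC, any 2 bases and TTTC on the other strand). The GAS core was searched as TTC, any 3 bases and GAA, which reads the same on both strands. The 2 patterns may stand side by side but were searched independently. The ISRE core was present for 16 of the 29 members (55.2%), against 3.99% of all 27025 genes with a window. The GAS core was present for 10 of 29 (34.5%), against 9.55% of all genes. Counted per window, the shares were 45.7% of 35 windows of members against 3.44% for the ISRE core, and 28.6% against 8.3% for the GAS core. Neither was found for Dtx3l, Ifi44, Irf7, Irf9, Oasl1, Oasl2, Trim25 and Xaf1. A match is a description of the letters and not of a bound site.

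The 160 bases before the start are shown for 6 members to which the results below return, 5 with the ISRE core and Isg20 with the GAS core only, each 5′ to 3′ on the gene's own strand with the matched motifs in capitals. Oas3 lies at chr5:120777660-120777819 on the minus strand, Ifit1 at chr19:34640729-34640888 on the plus strand, Ifit3 at chr19:34583369-34583528 on the plus strand, Isg15 at chr4:156200819-156200978 on the minus strand, Igtp at chr11:58199396-58199555 on the plus strand and Isg20 at chr7:78913264-78913423 on the plus strand.
Oas3: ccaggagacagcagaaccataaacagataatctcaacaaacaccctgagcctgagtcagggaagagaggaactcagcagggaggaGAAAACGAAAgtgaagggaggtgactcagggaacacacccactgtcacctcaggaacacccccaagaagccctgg
Ifit1: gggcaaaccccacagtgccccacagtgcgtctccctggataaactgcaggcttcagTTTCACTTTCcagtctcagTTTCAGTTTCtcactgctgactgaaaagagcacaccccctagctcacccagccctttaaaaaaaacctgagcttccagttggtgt
Ifit3: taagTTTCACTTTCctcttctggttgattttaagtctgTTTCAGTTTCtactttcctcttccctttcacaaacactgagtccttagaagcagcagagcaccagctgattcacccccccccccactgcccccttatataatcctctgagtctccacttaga
Isg15: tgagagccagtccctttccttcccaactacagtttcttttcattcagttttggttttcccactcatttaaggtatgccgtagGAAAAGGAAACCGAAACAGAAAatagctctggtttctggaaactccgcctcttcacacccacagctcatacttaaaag
Igtp: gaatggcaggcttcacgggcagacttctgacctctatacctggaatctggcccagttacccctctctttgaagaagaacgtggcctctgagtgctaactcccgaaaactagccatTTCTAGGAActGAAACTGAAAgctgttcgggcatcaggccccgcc
Isg20: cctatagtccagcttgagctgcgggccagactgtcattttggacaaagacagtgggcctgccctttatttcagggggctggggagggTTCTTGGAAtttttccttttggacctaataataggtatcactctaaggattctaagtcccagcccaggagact
Ifit1 and Ifit3 each carried the ISRE core at 2 separate places, read on the other strand. In Isg15, 3 cores overlapped in 1 run. In Igtp, a GAS core ended 2 bases before an ISRE core.

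Levels between genes were compared per length, as transcripts-per-million (TPM). The median member had a mean of 25.4 TPM over the 15 libraries, against 10.9 for all genes tested. The levels ran from 2.25 TPM for Ifi44, whose function is little understood, through Rsad2 (3.8 TPM), the radical enzyme viperin, and Oas2 (3.98 TPM) up to Igtp (119 TPM), an interferon-inducible GTPase, and Samhd1 (162 TPM), which hydrolyses deoxynucleotides. Ly6e, a lipid-anchored surface protein that restricts the entry of some viruses, was at 2157 TPM, above every other member. It was followed by Samhd1, Igtp, Ifi27 (116 TPM), Zbp1 (74 TPM) and Ddx58 (68.8 TPM).

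All differences between tissues were tested per gene with edgeR on counts, with batch in the model, and a gene was called at an adjusted p under 0.01 and a fold change over 1.5. The 6 pairs of tissues share samples, so their results are not independent. Of the 39 members, 1 was called between thymus and spleen (Oas3, higher in thymus), where 1.32% of all genes were called. At an adjusted p under 0.05 with no limit on the fold, 4 members passed (Isg20, Oas3, Oasl2 and Samhd1), against 2.6% of all genes. Between iLN and thymus 2 members were called (Samhd1 and Ly6e, both higher in iLN), against 1.5% of all genes. There, 4 passed at 0.05 (also Mx1 and Oas2, both lower in iLN), against 3.44%. Oas2 is outside the rule for named genes and was chosen after its values were seen.

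No member was called by edgeR between mLN and thymus, where 1.6% of all genes were called, but 19 members (48.7%, against 13.5% of all genes) had an unadjusted p under 0.05. DESeq2, run on all 24238 genes with a count and so without the filter, called 5 members there, and 1.76% of all genes. At an adjusted p under 0.05, 4 members passed (Eif2ak2, Ifit3, Irf7 and Oas3, all lower in mLN), against 2.85% of all genes. No member was called between mLN and spleen (0.654% of all genes; 4 members, 10.3%, at an unadjusted p under 0.05, against 12.2% of all genes; 0 members by DESeq2, against 1.1%) or between iLN and spleen (1.55%; 7 members, 17.9%, at an unadjusted p under 0.05, against 16.4%; 0 by DESeq2, against 2.43%), and 0 members passed at an adjusted p under 0.05 either, where 1.37% and 3.9% of all genes did. Between iLN and mLN, 0 were called by edgeR (0.471% of all genes; 5 members, 12.8%, at an unadjusted p under 0.05, against 13.8%) and 1 by DESeq2 (1.27% of all genes), and 1 passed at 0.05 (Samhd1; 1.35% of all genes).

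Both lymph nodes together were compared with spleen and thymus together, as in the question of the study on how the lymph nodes differ. There, 0 members were called by edgeR (1.72% of all genes; 13 members, 33.3%, at an unadjusted p under 0.05, against 17.6%) and 2 by DESeq2 (2.01% of all genes), and 4 passed at 0.05 (Irf7 and Mx1 lower, Ly6e and Samhd1 higher in lymph nodes), against 4.26% of all genes. Over the 4 tissues at once, Oas3 and Samhd1 were called at an adjusted p under 0.01 (3.38% of all genes), and 8 members at 0.05 (6.57% of all genes; also Eif2ak2, Irf7, Isg20, Ly6e, Mx1 and Oasl2).

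The median member differed by 0.25 (log2) between thymus and spleen, where the median of all genes tested was -0.01. It differed by -0.33 between mLN and thymus (all genes 0.03) and by -0.48 between iLN and thymus (all genes 0.03). Between mLN and spleen the median was -0.02 (all genes 0), between iLN and spleen -0.19 (all genes 0.01), and between iLN and mLN -0.08 (all genes 0). For 72 other interferon-induced genes, described below, the median was -0.03 between thymus and spleen. For these genes it was -0.12 between mLN and thymus and -0.25 between iLN and thymus. It was -0.17 between mLN and spleen, -0.23 between iLN and spleen and -0.02 between iLN and mLN. The tissue mean was highest in thymus for 21 of the 39 members (53.8%), against 21.8% of all genes. It was highest in iLN for 7 members (17.9%, against 30.6% of all genes), in mLN for 6 (15.4%, against 24.7%) and in spleen for 5 (12.8%, against 23%). In 4 members (Ifit3, Oas2, Oas3 and Oasl2; 10.3%) every thymus sample lay above every other sample, against 0.912% of all genes, and in 0 members did every thymus sample lie below every other sample, against 0.559% of all genes.

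**Figure D1:**
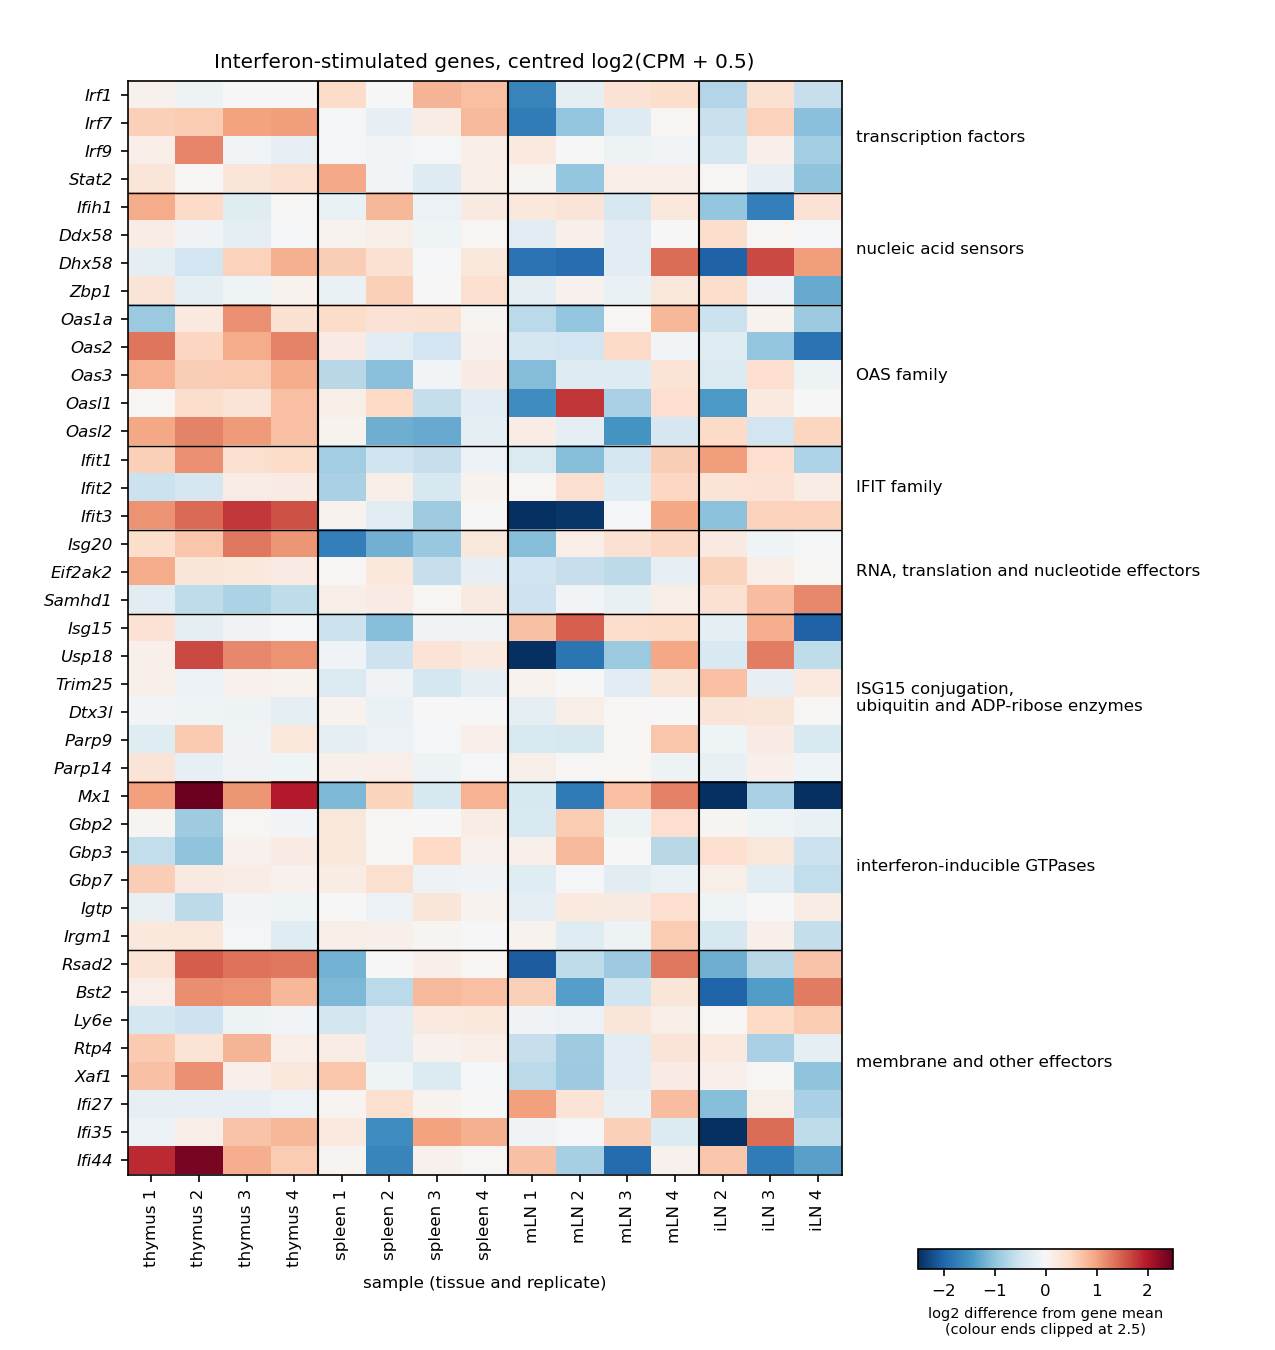
Each row is 1 of the 39 members, grouped by role, and each column 1 of the 15 samples, with lines between tissues. Colour gives log2(CPM + 0.5) minus the gene's mean, from blue (lower) to red (higher); the rows of Oas2, Oas3, Oasl2 and Ifit3 are red in every thymus sample, while the row of Samhd1 is blue under thymus and red under iLN.

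The mean over the 39 members of the centred log2 level was 0.3, 0.38, 0.39 and 0.41 in thymus replicates 1 to 4. It was -0.1, -0.16, -0.07 and 0.16 in spleen, -0.49, -0.33, -0.2 and 0.34 in mLN, and -0.34, 0.04 and -0.34 in iLN replicates 2, 3 and 4. The thymus samples lay close together, and mLN replicate 4 lay far from the other mLN samples and within the range of thymus. The mean was 0.37 ± 0.05 (SD, n = 4) in thymus, -0.04 ± 0.14 (n = 4) in spleen, -0.17 ± 0.36 (n = 4) in mLN and -0.21 ± 0.22 (n = 3) in iLN. Thymus was above the mean of the other 3 tissues by 0.51 in all samples, by 0.41 within batch 1 and by 0.63 within batch 2. The number of members above their own median over the 15 samples was 25, 22, 23 and 27 in thymus. It was 19, 13, 12 and 18 in spleen, 11, 13, 12 and 28 in mLN, and 16, 22 and 12 in iLN. By this count mLN replicate 4 lay above every thymus sample, and iLN replicate 3 equalled thymus replicate 2. These values are a description and were not tested.

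**Figure D2:**
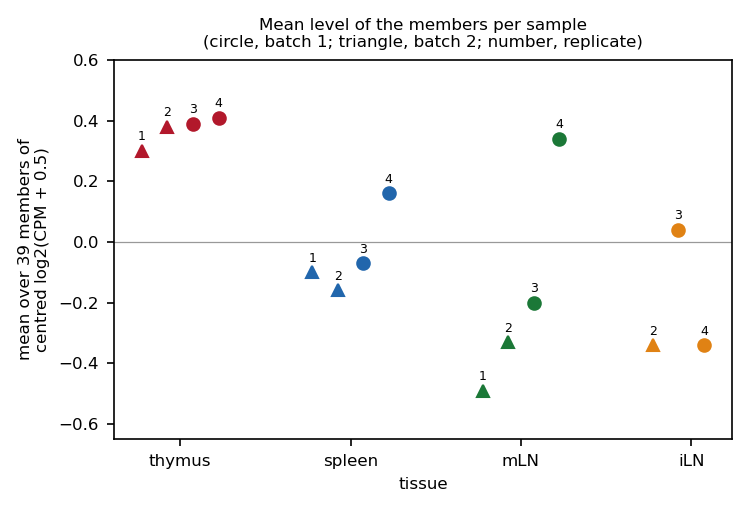
The mean over 39 members of log2(CPM + 0.5), centred per gene, is plotted for each sample by tissue, with circles for batch 1, triangles for batch 2 and the replicate number above each point. The 4 thymus samples lie between 0.3 and 0.41, and mLN replicate 4 (0.34) is the only other sample in that range.

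Among the transcription factors, Irf7, the regulator that amplifies type I interferon production, was lowest in mLN. Its level in CPM was 37.9, 39, 50.4 and 52 in thymus, 24.5, 21.6, 28.7 and 44.5 in spleen, 7.13, 12.3, 19.8 and 26 in mLN, and 16.9, 37.7 and 11.8 in iLN. Thymus and mLN did not overlap, whereas spleen replicate 4 lay within the thymus range and iLN replicate 3 just below it. The log2 difference was -1.55 ± 0.34 (SE) between mLN and thymus (edgeR adjusted p = 0.0135) and -1.05 ± 0.25 between the lymph nodes and spleen with thymus (edgeR adjusted p = 0.021), neither of which met the call. Within batches, the log2 difference of mLN from thymus was -1.16 in batch 1 and -1.98 in batch 2. The Irf7 gene (ENSMUSG00000025498) lies at chr7:141262706-141266481 on the minus strand and shares 45 exon bases with Phrf1 on the opposite strand.

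The other members of this group are Stat2 and Irf9, which are part of the ISRE-binding complex, and Irf1, an early target of interferon gamma. None of them passed in any comparison at an adjusted p under 0.05. Irf1 was at 94.3 ± 23 CPM (SD, n = 4) in spleen, 64.4 ± 4.42 in thymus (n = 4), 61.1 ± 31.1 in mLN (n = 4) and 55.3 ± 25.2 in iLN (n = 3). The mean of Irf9 in thymus, 82.6 ± 42.9 CPM (SD, n = 4), includes replicate 2, the library of lowest depth, at 146 CPM, with the other 3 between 54.5 and 70.3 CPM. Stat2 had tissue means from 34.7 CPM in iLN to 52.7 CPM in spleen and thymus.

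The nucleic acid sensors held no member that differed between tissues by the test. Ddx58 (RIG-I) and Ifih1 (MDA5) sense viral RNA in the cytosol, Dhx58 (LGP2) regulates both, and Zbp1 binds Z-form nucleic acid. None of the 4 passed at an adjusted p under 0.05 in any comparison. Ddx58 was at 125 ± 15.6 CPM (SD, n = 4) in thymus, 133 ± 10.5 in spleen (n = 4), 121 ± 16.4 in mLN (n = 4) and 144 ± 26.6 in iLN (n = 3). Zbp1 had tissue means from 80.1 CPM in iLN to 105 CPM in spleen, and Ifih1 from 31.1 CPM in iLN to 56.8 CPM in thymus. Dhx58 varied most among replicates, at 1.69, 1.6, 6.03 and 20.2 CPM in mLN and 1.44, 24.4 and 15.9 CPM in iLN, against 11.6, 9.77, 7.23 and 9.15 CPM in spleen and 6.17, 5.15, 11.3 and 14.2 CPM in thymus. Its log2 difference of mLN from spleen was the lowest of the members in that comparison, at -1.13 ± 0.68 (SE; edgeR adjusted p = 0.561).

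The OAS family makes or resembles the 2′-5′ oligoadenylate synthases, which on binding double-stranded RNA produce the second messenger that activates RNase L. Oas3 was at 147, 124, 125 and 154 CPM in thymus, 49.9, 38.9, 77 and 93.8 CPM in spleen, 37.9, 64.3, 64.7 and 103 CPM in mLN, and 63, 108 and 74.4 CPM in iLN. Every thymus sample was above every sample of the other tissues. Oas3 rose in thymus against spleen by 1.17 ± 0.23 on the log2 scale (2.25-fold; edgeR adjusted p = 0.00754). The log2 difference within batches was 0.71 in batch 1 and 1.61 in batch 2. Against thymus, mLN differed by -1.09 ± 0.23 (edgeR adjusted p = 0.0108) and iLN by -0.89 ± 0.26 (edgeR adjusted p = 0.0666). No difference among spleen, mLN and iLN passed the test. The call against spleen was lost when any of 7 of the 8 thymus and spleen libraries (all but thymus replicate 3) was left out (edgeR adjusted p from 0.011 to 0.0419, log2 difference from 1.02 to 1.3), without the batch term (edgeR adjusted p = 0.0717) and with a replicate block instead of batch (edgeR adjusted p = 0.0128).

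Oasl2, an OAS-like protein with ubiquitin-like domains, was at 33.2, 40.4, 35.8 and 28.6 CPM in thymus, 18, 6.91, 6.73 and 14.4 CPM in spleen, 19.2, 14.4, 5.62 and 12.5 CPM in mLN, and 23.5, 11.9 and 24.8 CPM in iLN. The thymus samples were again above all others, without overlap. Thymus differed from spleen by a log2 value of 1.58 ± 0.4 (SE; edgeR adjusted p = 0.0363), with 1.65 in batch 1 and 1.67 in batch 2. Oas2 was lower, and lowest in iLN, at 19.7, 11, 14.6 and 18.4 CPM in thymus against 5.92, 3.52 and 1.71 CPM in iLN, a log2 difference of -2.11 ± 0.54 (edgeR adjusted p = 0.0383). Oas1a and Oasl1 did not pass in any comparison. Oasl1 had tissue means from 3.97 CPM in iLN to 7.01 CPM in mLN. Oas1a was between 6.67 and 30.3 CPM over all samples and is uncertain, since 40.6% of its read-length sequences occur in Oas1g too. Oas2, Oas3 and Oas1a are neighbours on chr5, with Oas3 (ENSMUSG00000032661) at chr5:120753098-120777661 on the minus strand, in 14 exon blocks.

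The IFIT proteins bind viral RNA that lacks host cap methylation, Ifit1 directly and Ifit2 and Ifit3 as partners. Ifit3 was at 50.1, 61.7, 78 and 69.6 CPM in thymus, 24.2, 18.9, 12 and 22.6 CPM in spleen, 1.56, 3.77, 22.3 and 44.9 CPM in mLN, and 10.9, 34.1 and 33.9 CPM in iLN. The thymus samples did not overlap any other tissue, while the mLN samples spread over more than an order of magnitude, with the batch 2 samples lowest. The log2 difference of mLN from thymus was -2.3 ± 0.6 (SE; edgeR adjusted p = 0.0418), with -1.21 in batch 1 and -4.24 in batch 2. Of the read-length sequences of Ifit3, 31.3% are shared with Ifit3b, so that its counts may be divided between the genes.

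Ifit1 was at 60.3, 88.2, 52.1 and 54.3 CPM in thymus, 21.5, 28, 26.4 and 35.8 CPM in spleen, 30.5, 18.6, 29.5 and 60.7 CPM in mLN, and 82.2, 53.1 and 22.9 CPM in iLN. Thymus and spleen did not overlap, and mLN and iLN overlapped both. The log2 difference of thymus from spleen was 1.18 ± 0.38 (edgeR adjusted p = 0.137), and that of iLN from spleen was 0.92 ± 0.4 (edgeR adjusted p = 0.248). Ifit2 had tissue means of 32.3 ± 8.64 CPM (SD, n = 4) in thymus, 30.2 ± 8.94 in spleen (n = 4), 39.9 ± 9.87 in mLN (n = 4) and 42.7 ± 2.81 in iLN (n = 3), and did not pass in any comparison.

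The members that act on RNA, translation and nucleotides had different orders of tissues. Isg20, an exonuclease that degrades single-stranded RNA, was at 34.7, 41.9, 64.2 and 55.6 CPM in thymus, 7.5, 10.8, 13 and 31.1 CPM in spleen, 11.9, 28.7, 33.5 and 37 CPM in mLN, and 29.8, 23.8 and 24.6 CPM in iLN. Spleen was lowest, thymus highest, and the samples of both did not overlap. The log2 difference of thymus from spleen was 1.72 ± 0.36 (SE; edgeR adjusted p = 0.0104), just outside the call, with 1.55 in batch 1 and 2.02 in batch 2. In a fit with a replicate block instead of batch it was 1.79 and met the call (edgeR adjusted p = 0.00396).

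Eif2ak2 (PKR), the kinase that stops translation on sensing double-stranded RNA, was at 95, 61.7, 60 and 57.3 CPM in thymus, 50.6, 60.4, 33.1 and 43.5 CPM in spleen, 35, 33.2, 31.4 and 43.3 CPM in mLN, and 73.4, 56.1 and 51 CPM in iLN. The mLN samples lay below all thymus and iLN samples. On the log2 scale, mLN differed from thymus by -0.92 ± 0.22 (SE; edgeR adjusted p = 0.0255), with -0.66 in batch 1 and -1.16 in batch 2, and that of iLN from thymus was -0.14 ± 0.24 (edgeR adjusted p = 0.819).

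Samhd1, the deoxynucleotide triphosphohydrolase that limits reverse transcription, had the smallest p of the members over the 4 tissues (edgeR adjusted p = 0.000643). It was at 249, 191, 171 and 193 CPM in thymus, 328, 342, 306 and 346 CPM in spleen, 207, 284, 262 and 333 CPM in mLN, and 387, 510.1 and 685 CPM in iLN. Every iLN sample was above every other sample, and thymus lay below spleen without overlap. Samhd1 rose in iLN against thymus by 1.36 ± 0.19 on the log2 scale (2.57-fold; edgeR adjusted p = 0.000296), with 1.7 in batch 1 and 0.83 in batch 2. This call held in all 15 fits that left out a library and in the 5 fits with another setting. The log2 difference was 0.94 ± 0.19 between iLN and mLN (edgeR adjusted p = 0.015), 0.65 ± 0.19 between iLN and spleen (edgeR adjusted p = 0.0652) and -0.71 ± 0.18 between thymus and spleen (edgeR adjusted p = 0.0328). In order, thymus and mLN (0.42 ± 0.18; edgeR adjusted p = 0.279) and mLN and spleen (-0.29 ± 0.17; edgeR adjusted p = 0.556) were not separated. The gene (ENSMUSG00000027639) lies at chr2:157097533-157135265 on the minus strand, in 17 exon blocks.

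**Figure D3:**
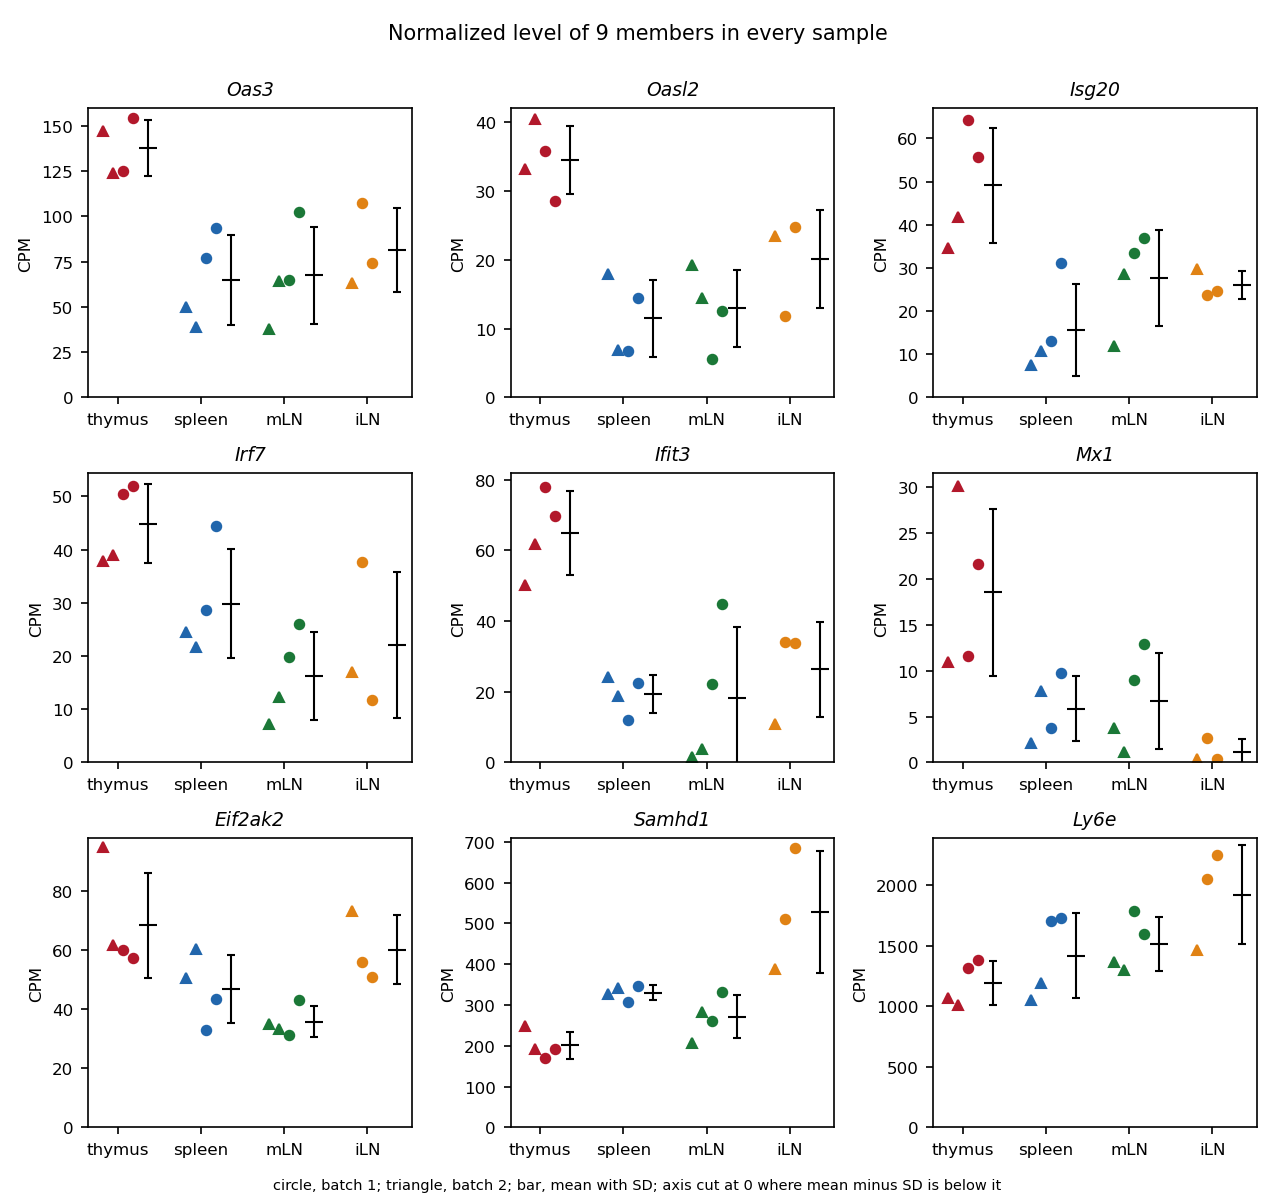
The CPM of 9 members is plotted for every sample by tissue, with circles for batch 1, triangles for batch 2 and a bar for the mean with SD (n = 4 for thymus, spleen and mLN, 3 for iLN); each axis starts at 0. Oas3, Oasl2, Isg20, Irf7, Ifit3, Mx1 and Eif2ak2 have their highest mean in thymus, and Samhd1 and Ly6e have theirs in iLN.

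ISG15 is a ubiquitin-like protein that is joined to other proteins, and Usp18 removes it and also blocks the type I interferon receptor. Isg15 was at 13.8, 8.82, 9.92 and 10.2 CPM in thymus, 7.11, 4.81, 9.97 and 9.97 CPM in spleen, 18, 30.6, 14.6 and 14.8 CPM in mLN, and 8.79, 20.3 and 2.22 CPM in iLN. The mLN samples were above all thymus and spleen samples, which is not the order of Oas3 or Ifit3. The log2 difference of mLN from spleen was 1.3 ± 0.53 (SE; edgeR adjusted p = 0.298), the highest of the members in that comparison, and did not pass. Usp18 was at 7.03, 21.3, 15.4 and 14.6 CPM in thymus, 6.02, 4.36, 8.22 and 7.73 CPM in spleen, 0.648, 1.45, 3.12 and 13.1 CPM in mLN, and 4.84, 16.3 and 3.93 CPM in iLN. Its log2 difference of mLN from thymus was -2.05 ± 0.7 (edgeR adjusted p = 0.15), on 5 to 68 estimated counts per mLN library, and that of iLN from mLN was 0.94 ± 0.7 (edgeR adjusted p = 0.597).

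The other members of this group are the ubiquitin ligases Trim25, which acts on RIG-I, and Dtx3l, its partner Parp9, and Parp14, which modify proteins with ADP-ribose. None passed in any comparison. Parp14 had tissue means from 233 CPM in iLN to 247 CPM in spleen, Dtx3l from 158 CPM in thymus to 202 CPM in iLN, Trim25 from 140.2 CPM in spleen to 212 CPM in iLN, and Parp9 from 43.5 CPM in iLN to 52.2 CPM in thymus. Parp9 and Dtx3l lie head to head and share 458 exon bases, so their reads cannot be fully told apart.

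Of the interferon-inducible GTPases, Mx1 had the largest fitted differences. Mx proteins block the nucleocapsids of viruses, although C57BL/6 mice carry a defective Mx1 allele. Mx1 was at 10.9, 30.1, 11.6 and 21.6 CPM in thymus, 2.07, 7.81, 3.74 and 9.76 CPM in spleen, 3.76, 1.16, 8.95 and 12.9 CPM in mLN, and 0.359, 2.71 and 0.342 CPM in iLN. The iLN values rest on 2, 10 and 2 estimated counts, and all lay below every thymus sample. Between iLN and thymus the log2 difference was -4.43 ± 0.93 (SE; edgeR adjusted p = 0.0101), just outside the call, with -3.31 in batch 1 and -4.44 in batch 2 on log2(CPM + 0.5). It was -2.22 ± 0.58 between the lymph nodes and spleen with thymus (edgeR adjusted p = 0.0345), -2.69 ± 0.88 between iLN and spleen (edgeR adjusted p = 0.105), -2.66 ± 0.86 between iLN and mLN (edgeR adjusted p = 0.14) and 1.74 ± 0.7 between thymus and spleen (edgeR adjusted p = 0.319).

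The GBP and IRG proteins attack the vacuoles of intracellular pathogens and are known as targets of interferon gamma. None of the 5 passed in any comparison, and Gbp7 alone among them had its highest mean in thymus. Igtp was at 146, 106, 157 and 154 CPM in thymus, 167, 149, 205 and 177 CPM in spleen, 141, 197, 194 and 222 CPM in mLN, and 155, 167 and 188 CPM in iLN. The 4 tissues overlapped, and the log2 difference of mLN from thymus was 0.42 ± 0.15 (edgeR adjusted p = 0.173). Gbp2 had tissue means from 40.3 CPM in thymus to 51.8 CPM in mLN, Gbp3 from 12.7 CPM in thymus to 18 CPM in spleen, and Irgm1 from 46.7 CPM in iLN to 60.9 CPM in mLN. Gbp7 ran from 126 CPM in iLN to 180.0 CPM in thymus.

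Ly6e, the most abundant member, was at 1063, 1012, 1318 and 1379 CPM in thymus, 1051, 1189.7, 1703 and 1726 CPM in spleen, 1366, 1297, 1785 and 1596 CPM in mLN, and 1465, 2045 and 2247 CPM in iLN. Within each tissue the batch 1 samples were above the batch 2 samples, and iLN was above thymus in each batch. Ly6e rose in iLN against thymus by 0.6 ± 0.11 on the log2 scale (1.51-fold; edgeR adjusted p = 0.00428), with 0.67 in batch 1 and 0.5 in batch 2. The fold lies at the edge of the threshold of 1.5, and the call was lost in 9 of the 15 fits that left out a library (any of thymus replicates 1 to 4 and iLN replicates 2 to 4, spleen replicate 2 or mLN replicate 4; log2 difference from 0.53 to 0.63, edgeR adjusted p from 0.00707 to 0.027) and without the batch term (edgeR adjusted p = 0.0948). The log2 difference of the lymph nodes from spleen with thymus was 0.36 ± 0.08 (edgeR adjusted p = 0.0101). The gene (ENSMUSG00000022587) lies at chr15:74955051-74959905 on the plus strand.

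The other 7 members of the last group did not pass in any comparison. Rsad2, at 19.4 ± 6.03 CPM (SD, n = 4) in thymus, 7.28 ± 2.63 in spleen (n = 4), 8 ± 8.92 in mLN (n = 4) and 7.26 ± 5.62 in iLN (n = 3), and Ifi44, at 10.2 ± 5.88, 2.51 ± 1.28, 2.61 ± 2.15 and 2.14 ± 2.5 CPM in the same order, had their highest mean in thymus. So did Bst2 (tetherin), Rtp4, Xaf1 and Ifi35, with thymus means of 13.6, 45.4, 56.7 and 17.2 CPM. Ifi27, a mitochondrial protein, had its highest mean in mLN, at 70.3 ± 24.3 CPM (SD, n = 4), and was at 41.1 to 43.1 CPM in the thymus samples.

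**Figure D4:**
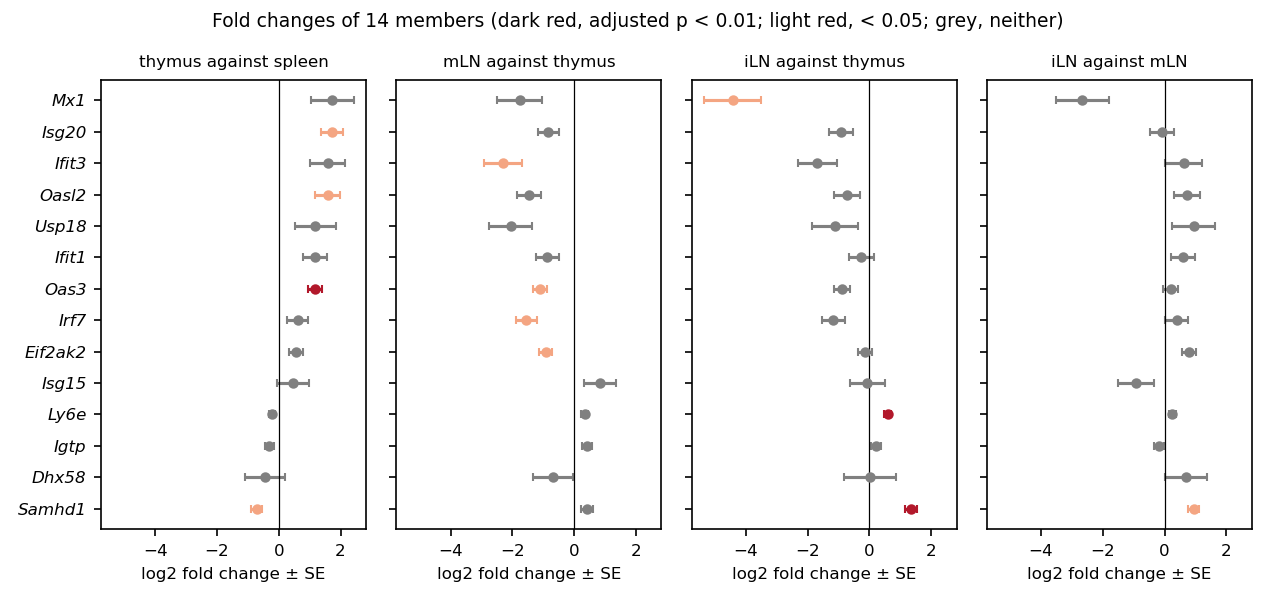
The log2 fold change with its SE from edgeR is plotted for the 14 named members in 4 comparisons, 1 panel each, with dark red for calls at an adjusted p under 0.01, light red for an adjusted p under 0.05 and grey for neither. Mx1, Isg20, Ifit3, Oasl2 and Oas3 lie above 0 for thymus against spleen and below 0 for mLN and iLN against thymus, and Samhd1 lies on the opposite side.

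In all 17 instances of a member with an adjusted p under 0.05 in a comparison, the difference had the same sign in both batches. The instances were picked by a fit on these same samples and repeat some members. The shared sign is therefore a description and no separate test. After tissue and batch means were taken out, the 741 pairs of members had a mean Pearson r of 0.112 over the 15 samples, against 0.002 for all pairs of genes tested. The largest were Usp18 with Parp9 (0.88), Gbp2 with Igtp (0.86), Zbp1 with Gbp7 (0.84) and Irf1 with Dtx3l (0.84), and the lowest were Ifi35 with Trim25 (-0.87) and Oas1a with Ly6e (-0.83). Irf7 had the highest mean r with the other members (0.3) and Ly6e the lowest (-0.23). The genes tested were not matched to the members in level (median 10.9 TPM, against 25.4 TPM for members). All pairs share the same libraries and their depth, and these values are a description.

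Upstream of the members, the interferon ligands other than Ifng were nearly absent. Of 10 interferon ligand genes, Ifng passed the filter, at 2.44 to 34.2 CPM, and 7 of the others (Ifnb1, Ifna1, Ifna4, Ifna5, Ifne, Ifnl2 and Ifnl3) were listed at 0 in every library, while Ifna2 had 1 estimated count and Ifnk 22 over all libraries. Ifng had a mean of 14.6 TPM, with tissue means of 7.91 CPM in thymus, 17.5 in spleen, 15.1 in mLN and 3.56 in iLN. Its log2 difference of iLN from spleen was -2.17. It passed at an edgeR adjusted p under 0.05 there and over 4 tissues, but was not called. Of 6 receptor genes 5 were tested. Ifnar1 and Ifnar2 did not pass in any comparison, with tissue means of 80.7 to 109.6 CPM and 85.5 to 119 CPM. Ifngr1, the ligand-binding chain for interferon gamma, was at 159, 228, 229 and 250.1 CPM in thymus, 87.2, 56.2, 104 and 122 CPM in spleen, 78.6, 52.1, 62.8 and 90.7 CPM in mLN, and 104, 91.8 and 172 CPM in iLN. It rose in thymus against spleen by 1.25 ± 0.22 on the log2 scale (edgeR adjusted p = 0.00236) and fell in mLN against thymus by 1.6 ± 0.22 (edgeR adjusted p = 0.0002). Ifngr2, the signalling chain, was at 2.22, 2.94, 1.38 and 1.9 CPM in thymus, 4.05, 2.55, 0.997 and 1.83 CPM in spleen, 28.7, 16.4, 15.6 and 8.09 CPM in mLN, and 10, 8.4 and 20.5 CPM in iLN. It rose in the lymph nodes against spleen with thymus by 2.85 ± 0.39 (edgeR adjusted p = 0.000194), without overlap of the samples.

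Of 10 kinases, STATs and IRFs, Jak2, the kinase of the interferon gamma receptor, fell in thymus against spleen (156 ± 27.4 CPM, SD, n = 4, against 318 ± 41.9, n = 4; log2 difference -1.03 ± 0.2, edgeR adjusted p = 0.00486). Of the 11 inhibitors tested, the phosphatase Ptpn6 (SHP-1) rose in thymus against spleen (212 ± 62.2 CPM, n = 4, against 61.4 ± 8.32, n = 4; log2 difference 1.75 ± 0.22, edgeR adjusted p = 9.47e-05). Of the 11 nucleic acid sensing genes tested, Tlr7, the endosomal receptor for single-stranded RNA, rose in thymus against spleen (28.7 ± 18 CPM, n = 4, against 4.47 ± 2.1, n = 4; log2 difference 2.56 ± 0.48, edgeR adjusted p = 0.00397). No other gene of these 3 lists was called in that comparison. Irf3, which is activated by the sensors and induces interferon beta, fell in iLN against spleen (19.5 ± 5.89 CPM, n = 3, against 58.1 ± 14.2, n = 4; log2 difference -1.57 ± 0.32, edgeR adjusted p = 0.00814).

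A longer list of 77 other interferon-induced genes held 72 that were tested. Of these, 0 were called by edgeR between thymus and spleen (1.32% of all genes) and 1 between mLN and spleen (lower, against 0.654%). Between iLN and spleen 3 were called (1 higher, 2 lower, against 1.55%), and between mLN and thymus 2 (lower, against 1.6%). Between iLN and thymus 5 were called (1 higher, 4 lower, against 1.5%), and between iLN and mLN 1 (higher, against 0.471%). For the lymph nodes against spleen with thymus 5 were called (1 higher, 4 lower, against 1.72%), and over 4 tissues 8 (against 3.38%). Nlrc5, the activator of MHC class I genes, fell in iLN against thymus by 1.31 on the log2 scale (59.7 ± 15.1 CPM, SD, n = 3, against 146 ± 14.6, n = 4; edgeR adjusted p = 0.00251). Ifi213, a member of the DNA-sensing PYHIN family, fell in iLN against thymus by 1.2 (edgeR adjusted p = 0.0028). Slfn5 rose there by 1.48 (172 ± 17.9 CPM, n = 3, against 59.8 ± 11.8, n = 4; edgeR adjusted p = 0.00319). Lgals3bp, a secreted glycoprotein, rose in iLN against mLN by 1.14 (311 ± 48 CPM, n = 3, against 137 ± 33.8, n = 4; edgeR adjusted p = 0.000557). Gbp4 fell in mLN against spleen by 0.75 (153 ± 14.1 CPM, n = 4, against 259.9 ± 56.4, n = 4; edgeR adjusted p = 0.0097). Gbp8, which is not a member, was called in iLN against spleen and against thymus. Its tissue means were 23.2 CPM in iLN, 62.5 CPM in mLN, 107 CPM in spleen and 85.8 CPM in thymus. Ifitm2, which blocks the fusion of viruses in endosomes, was at 11.5, 11.8, 9.64 and 7.4 CPM in thymus and at 0 to 0.778 CPM in every other sample. Ifitm1 was at 16.8, 3.68, 3.03 and 4.36 CPM in thymus, at 1.38 CPM in spleen replicate 1 and at 0 in the other 10 samples.

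**Figure D5:**
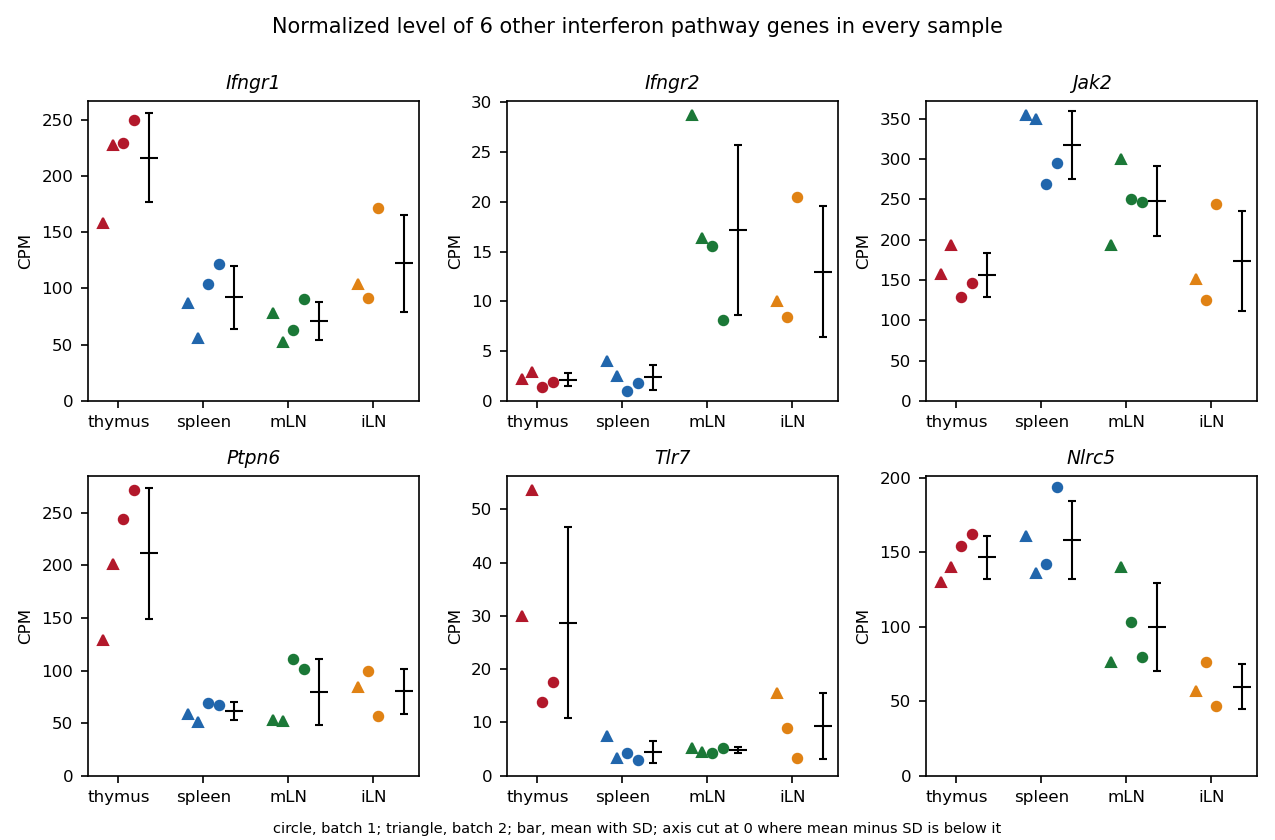
The CPM of 6 genes of the interferon pathway that are not members is plotted for every sample by tissue, with circles for batch 1, triangles for batch 2 and a bar for the mean with SD (n = 4, and 3 for iLN); each axis starts at 0. Ifngr1, Ptpn6 and Tlr7 have their highest mean in thymus, Ifngr2 in mLN and Jak2 in spleen, and Nlrc5 is lowest in iLN.

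Genes of other cells and of iNKT subsets also differed between these tissues. The 5 NK cell genes summed to 272.7 to 417 CPM in thymus and to at most 27.7 CPM in any other sample. Most of that sum was Gzmb (259.5 to 390.1 CPM in thymus), which activated T cells make too, while Ncr1 and Eomes, the defining genes, were at 0 to 0.864 and 0 to 1.47 CPM in thymus. Klrb1b was at 7.4 to 23.7 CPM in thymus and 1.95 to 8.55 CPM elsewhere, and Klra8 at 0.735 to 3.03 CPM in thymus and 0 to 1.2 CPM elsewhere. The 6 NKT17 genes summed to 227 to 490.2 CPM in iLN and to at most 66.8 CPM elsewhere. The 6 NKT1 genes summed to 1847 to 2805 CPM in thymus, 1476 to 2859 CPM in spleen, 1066 to 1512 CPM in mLN and 1055 to 1665 CPM in iLN, so that the sum in thymus lay above both lymph nodes without overlap. The largest part was Il2rb (679 to 1937 CPM over all samples). Klrb1c, Xcl1 and Nkg7 lay above both lymph nodes in thymus, while Il2rb and Tbx21 overlapped. Ccl5 went the other way, at 16.9 to 29 CPM in thymus, 44.1 to 70.9 CPM in mLN and 18.5 to 35.8 CPM in iLN. The 6 NKT2 genes summed to 1084 to 1385 CPM in iLN and to at most 815 CPM elsewhere. Most of the iLN sum was Icos (787 to 1012 CPM, and at most 514 CPM elsewhere), which the study counts among T cell activation genes. Zbtb16 and Ccr7 lay above thymus and spleen in iLN but overlapped mLN, and Il4 and Gata3 overlapped in all tissues. Plac8 went the other way, at 1.71 to 9.21 CPM in iLN and 13.2 to 49.9 CPM in mLN. The 8 B cell genes summed to 80.1 to 145 CPM in thymus and 203.9 to 373 CPM in spleen, and Ebf1 and Pax5 were at 0 in all thymus samples. The 12 genes of macrophages, monocytes and dendritic cells summed to 18.5 to 33.1 CPM in thymus, 36.1 to 115 CPM in spleen, 25 to 42.6 CPM in mLN and 20.1 to 32.8 CPM in iLN. The 8 genes of plasmacytoid dendritic cells, the main producers of type I interferon, include the member Bst2 and Ccr9, which iNKT cells express too. They summed to 33.8 to 88.2 CPM in thymus, 151.5 to 240.5 CPM in spleen, 232 to 448 CPM in mLN and 38.2 to 69.1 CPM in iLN, mostly as Ccr9, and Siglech, their defining gene, was at 0 in all thymus samples and at most 1.58 CPM elsewhere. The 7 genes of immature thymocytes summed to 30.9 to 83.1 CPM in thymus, 134.3 to 235 CPM in spleen, 184.7 to 259 CPM in mLN and 92.2 to 151 CPM in iLN, mostly as Themis outside thymus. Rag1 of that list was at 19.3, 22.1, 5.51 and 5.88 CPM in thymus and at most 0.15 CPM elsewhere. Red cell genes summed to 24 to 117 CPM in spleen and to at most 14.7 CPM in any other sample. The part of these differences in the results on the members was not tested.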

How the data were processed

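RNA of sorted iNKT cells from 4 tissues was sequenced in 15 libraries. Per the submitters' processing notes, reads were trimmed with cutadapt 1.7.1 and quantified with RSEM 1.2.31 and Bowtie2 2.2.9 on GRCm38.p6, and the annotation release is not given in the sources used here. For each library the authors deposited expected counts (RSEM's estimated counts per gene, which share out reads that fit several genes) and TPM (transcripts per length, scaled to the same sum in each library). A column of FPKM was not used. The library kit does not mark strand, so overlapping genes on opposite strands cannot be told apart. Gene symbols were missing for 446 of 48795 identifiers.

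Expected counts were rounded to whole numbers, filtered by expression per tissue (filterByExpr), scaled by the trimmed mean of M values (TMM; factors 0.755 to 1.18) and fitted for all 13600 genes left with edgeR 4.0.16 in R 4.3.3 (quasi-likelihood test, two-sided, tissue and batch in the model, all 15 samples). P-values were adjusted by Benjamini-Hochberg over all genes tested. A gene was called at an adjusted p under 0.01 and a fold over 1.5 (adjusted p alone over 4 tissues). Replicates of a tissue differed by more than counting noise (chi-square per degree of freedom 7.82 to 236, r of log2 CPM 0.843 to 0.962), so none was counted as a duplicate. Alternatives were DESeq2 1.42.0 (on all genes with a count), its size factors within edgeR (RLE), no filter, no batch term, the replicate number as a block, and each library left out in turn. Scripts were tested on simulated data. Total counts per library limit the precision of low genes.

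Members given with the value of every sample were those called in any comparison, those at an adjusted p under 0.05 over 4 tissues, the 3 of highest mean TPM, and the member with the largest fold change up and down in each comparison. The members, the other gene lists and the markers were chosen with earlier results of these data known. Within-batch differences are of mean log2(CPM + 0.5). Gene positions were read from the annotation of GRCm38.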

Additional observations from a re-analysis of the deposited data

Results flagged for a closer look

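In 45 groups of 4 samples (14 named members and the mean over the 39 members, in thymus, spleen and mLN), 1 held a sample far from the others, and chance flags about 1 in 20 such groups. Eif2ak2 was at 95 CPM in thymus replicate 1 and at 57.3 to 61.7 CPM in the other thymus samples, a gap of 0.882 of the whole range. Without that library the log2 difference of mLN from thymus went from -0.92 to -0.77 and no longer passed at 0.05 (edgeR adjusted p = 0.124, and 0.0255 with it).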

How the results depend on the processing

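Without the filter on low counts, 6 members were called between thymus and spleen, 3 between mLN and thymus, 4 between iLN and thymus, 1 between iLN and mLN, 3 between the lymph nodes and spleen with thymus, and 8 over 4 tissues, where 1.62%, 1.79%, 1.98%, 1.15%, 2.19% and 4.68% of 24238 genes were called. With DESeq2, also without that filter, these counts were 4, 5, 4, 1, 2 and 10 (1.68%, 1.76%, 2.06%, 1.27%, 2.01% and 4.44% of 24238 genes). In the main edgeR fit, the counts at an adjusted p under 0.05 with no fold were 4, 4, 4, 1, 4 and 8 (2.6%, 2.85%, 3.44%, 1.35%, 4.26% and 6.57% of 13600 genes). Without the batch term, the members called were 0 between thymus and spleen (0.904% of all genes), 1 between iLN and thymus (0.904%) and 1 over 4 tissues (2.28%). The cause was not tested. With each library left out in turn, the counts ranged from 0 to 2 between thymus and spleen, 0 to 2 between mLN and thymus, 1 to 3 between iLN and thymus, 0 to 1 between iLN and mLN, 0 to 1 for the lymph nodes and 1 to 3 over 4 tissues. In the same order, the share of all genes called ranged from 0.846% to 1.65%, 0.923% to 1.65%, 0.768% to 1.75%, 0.326% to 0.49%, 1.17% to 1.89% and 2.41% to 3.65%. Over 4 tissues, 1 member was called without thymus replicate 1, 2 or 4, spleen replicate 1, 2 or 3 or mLN replicate 3, and 3 without spleen replicate 4 (also Isg20) or mLN replicate 4 (also Ifit3). Between mLN and spleen and between iLN and spleen, 0 members were called under each alternative, where 0.178% to 1.13% and 0.799% to 2.43% of all genes were called. Of 520 values of 26 fold changes under 20 alternatives, 0 reversed, 461 stayed on their side of the threshold, 19 no longer passed it and 40 newly passed it. The thymus mean level stood 0.51 above the other tissues, and 0.48 to 0.57 with a library left out. Irf7 in mLN against thymus passed the call without iLN replicate 3 or 4, and Ifit3 without mLN replicate 4.

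Pairs of samples with the same replicate number had deviations from the tissue means that correlated with a mean of 0.126 (21 pairs; lowest 0.000739, 15 over 0.1), against 0.112 for other samples of the same batch. Of the 15 samples, 12 correlated best with one of their own number. Same-numbered samples also share a unit label, and the study used a paired t-test for clonotype frequencies from its sequencing data. These values do not decide whether the numbers pair the samples, and the main fit ignores a pairing if there is one. Where the model held a replicate block instead of batch, 1 member was called over 4 tissues (Samhd1; 2.93% of all genes). Between thymus and spleen 1 was called (Isg20 in place of Oas3, whose edgeR adjusted p was 0.0128; 1.28% of all genes).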
